A study of Papilio machaon with 10 samples.

Results

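The 6 genes described here are rows of an expression table of the swallowtail butterfly Papilio machaon that were taken as prenyl pyrophosphate synthases outside the main tandem cluster of farnesyl pyrophosphate synthase (FPPS) genes. They are 6 of 15285 rows. RR48_04338, RR48_04339, RR48_04341, RR48_06898 and RR48_13269 were matched to FPPS genes and RR48_12150 to a geranylgeranyl pyrophosphate synthase (GGPPS) gene. The rows were chosen by their RPKM profiles over all 10 libraries, set against the published heat map of these gene families, so the identity of every row rests on that match. The table gives locus tags without names, coordinates or sequence, and 0 of its tags were found in the reference gene table used here, so the names could not be checked in another way. Since the levels themselves chose the rows, all levels and differences are given as a description, without a test.

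Short-chain prenyl pyrophosphate synthases join isoprene units into the linear chains from which insects make juvenile hormone and the lipid anchors of proteins. FPPS makes farnesyl pyrophosphate, the precursor of juvenile hormone, and GGPPS makes the longer geranylgeranyl pyrophosphate used to anchor small GTPases to membranes. Juvenile hormone keeps a larva larval from moult to moult, its fall in the final instar precedes pupation, and in adults of many insects it returns in connection with reproduction. In moths and butterflies it is made mainly in the corpora allata, small glands behind the brain, while the enzymes of the isoprenoid pathway are used in many tissues.

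RNA was taken from whole bodies of unmanipulated animals and read in 10 libraries, 1 each for the egg and the 5 larval instars L1 to L5, and 1 per sex, female and male, for the pupa and for the adult. The egg, L1 and L2 libraries pooled several individuals and each of the others came from a single animal, with larvae reared on fennel or carrot. The labels give a sex for pupae and adults only and no age within a stage. There are no replicates, so sex cannot be told apart from the individual, nor stage from the library. Expression is in RPKM (reads per gene, divided by the gene's length and by a denominator for the library). The reads behind each value were recovered from the steps between values. Between 23274472 and 35989828 reads fell on genes per library. For a gene of 1 kb, a floor of 3 reads corresponds to 0.113 to 0.167 RPKM. Ratios between libraries carry exact 95% intervals that cover counting error only and treat each recovered read as a separate count. With lengths taken in steps of 3 bp, the reads on genes were 1.05 to 1.55 times the denominators. Whether a fragment was counted more than once was not tested. The L2 library stood apart, with a Spearman correlation over 13984 rows of 0.726 to 0.769 with the other instars, which correlated at 0.842 to 0.908 among themselves. In whole-body RNA, fewer cells of a type and less RNA per cell cannot be told apart, and without gene names no tissue marker could be examined.

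The 6 genes followed 6 different courses. RR48_06898 was an egg and early larval gene, RR48_13269 was highest in the egg and L1, RR48_04341 was high in L1 to L4 and in adults, RR48_04339 was high in L2 and in the female pupa, RR48_04338 was low throughout, and the GGPPS row RR48_12150 was present at a moderate level in every library. The mean level over the 10 libraries was 27.9 RPKM for RR48_04341, 23.7 RPKM for RR48_06898, 22.4 RPKM for RR48_04339, 8.99 RPKM for RR48_12150, 2.17 RPKM for RR48_04338 and 1.89 RPKM for RR48_13269. The median row of the table had a mean of 12.7 RPKM, so that 3 of the 6 were above it and 3 below. All 6 had a mean of at least 1 RPKM, as had 13984 of the 15285 rows. RR48_04338, RR48_04339 and RR48_06898 were each at 0 in 1 library, and 17.3% of all rows were at 0 in at least 1.

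**Figure D1:**
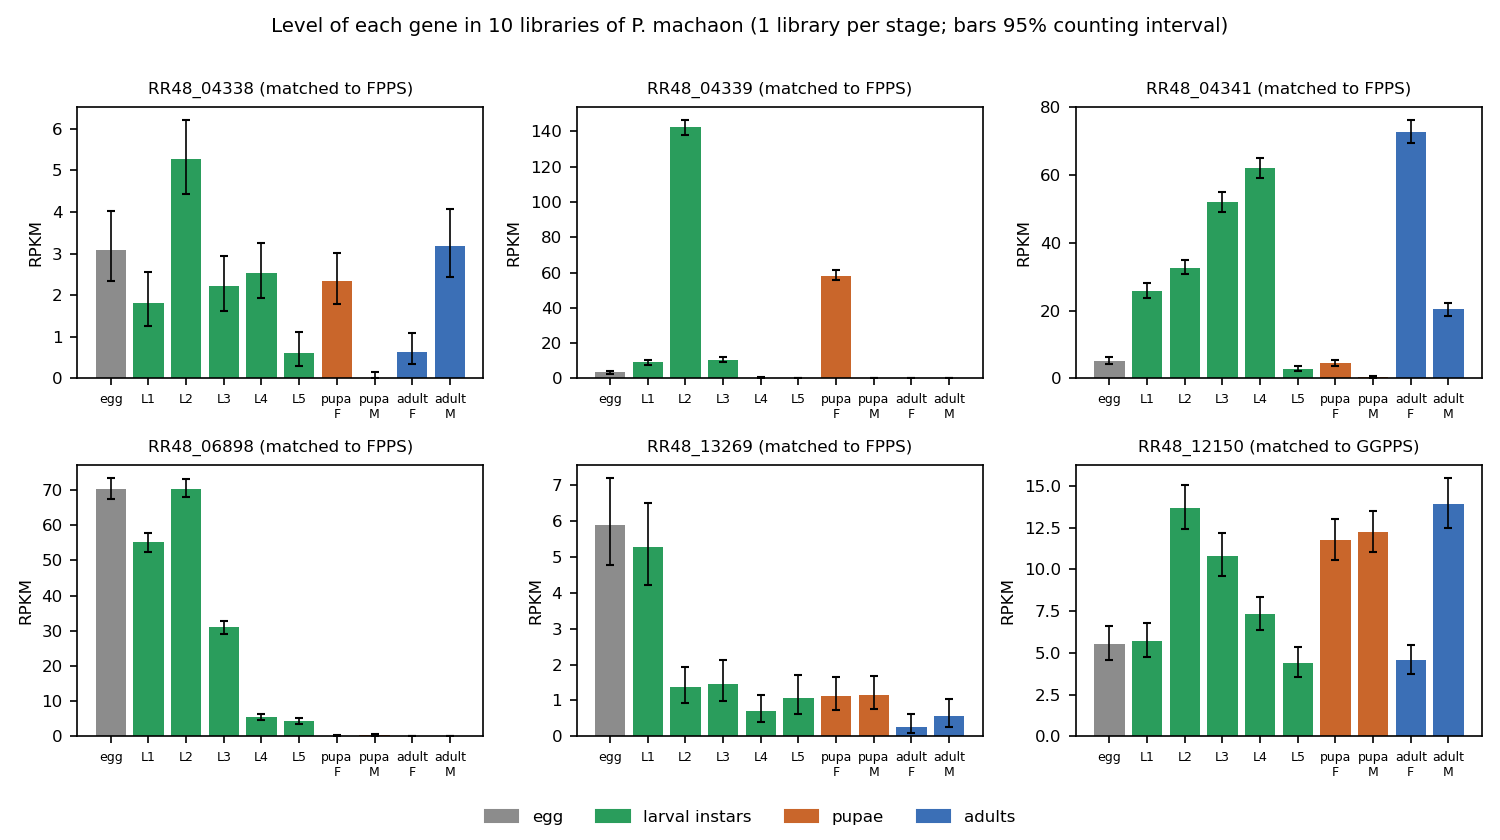
Level of each gene in RPKM (vertical axes, on separate scales) in the 10 libraries, in developmental order with female before male. Bars are the values of single libraries and lines the exact 95% counting intervals; RR48_04339 reaches 142 RPKM in L2 and 58.3 RPKM in the female pupa, whereas RR48_12150 stays between 4.38 and 13.9 RPKM.

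RR48_04339 had the most restricted profile. It measured 3.40 RPKM in the egg and 9.11 in L1, then 142 in L2 and 10.7 in L3, and 0.332 in L4 and 0 in L5. In later stages it measured 58.3 RPKM in the female and 0.0338 in the male among pupae, and 0.128 in the female and 0.0898 in the male among adults. L2 and the female pupa therefore held 89.4% of its summed RPKM, and L2 alone 63.4%. The L2 value rested on 4253 reads and stood above 93.4% of the rows in that library. It was 15.6-fold the L1 value (13.5 to 18.2) and 13.3-fold the L3 value (11.7 to 15.1), which did not differ from each other beyond counting error (L3 over L1 1.17, 0.97 to 1.42). In L5 the gene had 0 reads, with an exact interval up to 0.182 RPKM and a floor of 0.148 RPKM. The female pupa had 1699 reads against 1 read in the male pupa, a ratio of 1724 with a counting interval of 309 to 68123. In adults the sexes had 3 and 2 reads, female and male, and the interval of their ratio ran from 0.163 to 17.1, so that no difference between adults was detectable at this depth.

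RR48_04341, the FPPS row with the highest mean, had a higher level at each stage from the egg to L4. It measured 5.15 RPKM in the egg and 25.8 in L1, then 32.7 in L2 and 51.9 in L3, and 62.1 in L4 and 2.85 in L5. Each step up to L4 was beyond counting error, with L1 at 5.00-fold the egg (4.05 to 6.22), L2 at 1.27-fold L1 (1.14 to 1.41), L3 at 1.59-fold L2 (1.46 to 1.73) and L4 at 1.20-fold L3 (1.11 to 1.29). The final instar then had 0.0459 times the L4 level (0.0347 to 0.0597), on 58 reads in L5 against 1690 in L4. The gene measured 4.51 RPKM in the female and 0.404 in the male among pupae, then 72.8 in the female and 20.4 in the male among adults. The female value was thus 11.2-fold the male value in pupae (6.18 to 22.1) and 3.58-fold in adults (3.22 to 3.97). Adults exceeded pupae of the same sex 16.2-fold in females (13.5 to 19.4) and 50.4-fold in males (28.6 to 98.3). The female adult was the highest of all libraries, 1.17-fold above L4 (1.10 to 1.25), and the egg and the female pupa were the only neighbours in the order of levels whose ratio interval held 1 (0.876 to 1.49).

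RR48_04338, whose tag directly precedes that of RR48_04339, was read at a low level. It measured 3.09 RPKM in the egg and 1.81 in L1, then 5.26 in L2 and 2.21 in L3, and 2.52 in L4 and 0.619 in L5. Pupae had 2.35 RPKM in the female and 0 in the male, and adults had 0.632 RPKM in the female and 3.17 in the male. The highest value, in L2, rested on 138 reads and was 1.66-fold the next, in the male adult (1.22 to 2.28). The male adult, the egg, L4, the female pupa, L3 and L1 followed, and no neighbouring pair among these 6 differed beyond counting error. Libraries further apart in this order could differ, as L1 had 0.586 times the egg level (0.369 to 0.919). The sexes stood in opposite order at the 2 stages. The female pupa had 60 reads against 0 in the male pupa, and was at least 16.0-fold higher by the exact interval of the ratio, or 20.3-fold against the floor of 3 reads in the male library. The exact interval of the male pupa reaches 0.142 RPKM, and its floor is 0.116 RPKM. The female adult had 13 reads against 62 in the male adult, 0.199 times the male level (0.101 to 0.366).

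RR48_06898 was the leading gene of the egg and the first instar. It measured 70.4 RPKM in the egg and 55.1 in L1, then 70.4 in L2 and 30.9 in L3, and 5.42 in L4 and 4.32 in L5. Pupae and adults were near 0, with 0.194 RPKM in the female and 0.382 in the male among pupae, and 0 in the female and 0.0317 in the male among adults. All 5 instars lay above all 4 pupal and adult libraries, and the share of all rows separated in this way was not counted. Of the steps from instar to instar, that to L4 had the lowest ratio, with 0.175 times the L3 level in L4, on 208 reads against 1061. L2 and the egg did not differ beyond counting error (ratio 1.00, 0.945 to 1.06), nor did L4 and L5 (1.25, 0.999 to 1.58). L5, the lowest instar, was 11.3-fold above the male pupa (6.70 to 20.4). The pupae had 8 reads in the female and 16 in the male, and the adults 0 in the female and 1 in the male, too few to order them by sex. The 0 reads of the female adult have an exact interval up to 0.111 RPKM and a floor of 0.0903 RPKM.

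RR48_13269, with 340 reads in all, was the least abundant of the 6 and had its highest values in the youngest stages. It measured 5.89 RPKM in the egg and 5.27 in L1, then 1.36 in L2 and 1.47 in L3, and 0.704 in L4 and 1.07 in L5. The pupae had 1.13 RPKM in the female and 1.16 in the male, and the adults 0.271 in the female and 0.570 in the male. The egg and L1 did not differ beyond counting error (egg over L1 1.12, 0.826 to 1.52), and L1 was 3.58-fold above L3, the next in order (2.32 to 5.71). From L3 downward no neighbouring pair in the order was separated by its counting interval. Libraries further apart in the order could be separated. L4 had 0.479 times the L3 level (0.238 to 0.928), and the female adult 0.239 times that of the female pupa (0.0717 to 0.632). The sexes did not differ beyond counting error in pupae (0.977, 0.548 to 1.74) or in adults (0.475, 0.127 to 1.53).

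RR48_12150, the row matched to GGPPS, was the most even of the 6. It measured 5.53 RPKM in the egg and 5.73 in L1, then 13.7 in L2 and 10.8 in L3, and 7.31 in L4 and 4.38 in L5. Pupae had 11.7 RPKM in the female and 12.2 in the male, and adults 4.54 in the female and 13.9 in the male. The highest value was 3.18 times the lowest, against a median of 9.94 over all rows and 8.50 to 4206 (from the lowest value above 0) in the 5 rows matched to FPPS. The male adult, L2, the male pupa, the female pupa and L3 formed an upper set in which no neighbours differed beyond counting error. Within this set L2 was nevertheless 1.26-fold L3 (1.09 to 1.48). The lower set of L1, the egg, the female adult and L5 was likewise not separated between neighbours. The female pupa had 0.962 times the level of the male pupa (0.831 to 1.11), and the female adult 0.326 times that of the male adult (0.261 to 0.405).

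A single index of restriction put the same contrast in 1 number per gene. The index tau, computed on log2(RPKM + 1), is 0 for a gene at the same level in every library and 1 for a gene read in a single one. It was 0.757 for RR48_04339, higher than in 88.3% of all rows. It was 0.593 for RR48_13269, 0.588 for RR48_06898, 0.486 for RR48_04338 and 0.401 for RR48_04341, and 0.195 for RR48_12150, against a median of 0.345 over all rows. All 5 FPPS-matched rows were therefore above the median and the GGPPS-matched row below it. The lowest of the 5, RR48_04341, was higher than 57.6% of all rows, and RR48_12150 was higher than 21.8%. The family labels were assigned from these same profiles and GGPPS is 1 row, so the index does not compare the families.

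The gene with the most RPKM among the 6 changed from stage to stage. RR48_06898 made up 75.3% of their summed RPKM in the egg and 53.6% in L1. RR48_04339 led in L2 with 53.6%, and RR48_04341 led in L3 with 48.0% and in L4 with 79.2%. In L5, where the sum was lowest, RR48_12150 held 33.1% and RR48_06898 32.7%. RR48_04339 led in the female pupa with 74.5%, whereas RR48_12150 led in the male pupa with 86.0%. RR48_04341 led in both sexes of the adult, with 92.9% in the female and 53.4% in the male, where RR48_12150 held 36.5%.

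The summed level of the 6 genes was highest in L2. It was 93.5 RPKM in the egg and 103 in L1, then 266 in L2 and 108 in L3, and 78.4 in L4 and 13.2 in L5. It was 78.2 RPKM in the female and 14.2 in the male among pupae, and 78.4 RPKM in the female and 38.1 in the male among adults. In the egg and in L1, L2 and L3 all 6 genes measured at least 1 RPKM, but in the male pupa and in the female adult only 2 did. The 2 were RR48_13269 and RR48_12150 in the male pupa, and RR48_04341 and RR48_12150 in the female adult. L5 was the only library in which none of the 6 reached 10 RPKM. The share of all rows at these levels was not worked out per library, so the counts describe the 6 genes only. A given RPKM also ranked differently by library. In L5, 4.38 RPKM (RR48_12150) stood above 45.6% of the rows, and in L4, 5.42 RPKM (RR48_06898) above 38.0%.

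**Figure D2:**
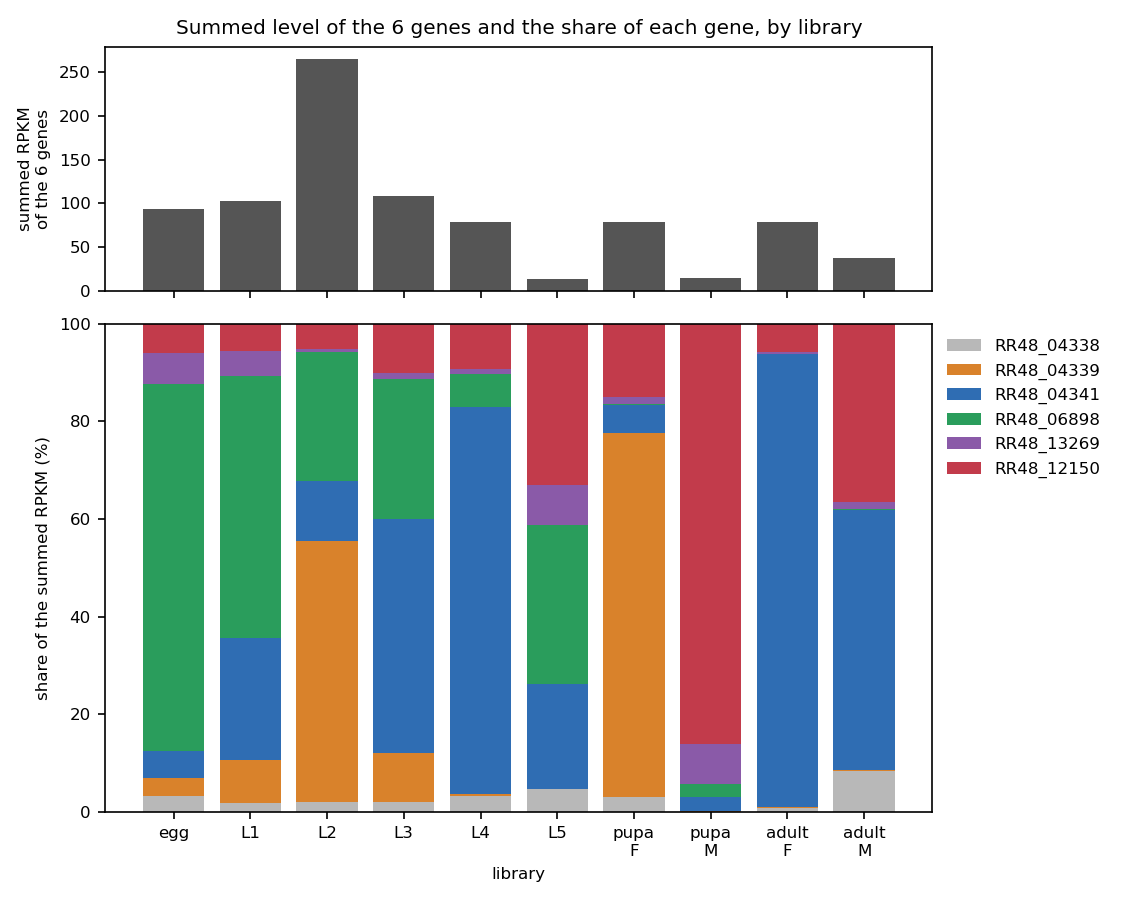
Summed RPKM of the 6 genes (upper panel) and the percentage of that sum held by each (lower panel) in the 10 libraries, in developmental order with female before male. RR48_06898 (green) holds 75.3% in the egg, RR48_04339 (orange) 53.6% in L2 and 74.5% in the female pupa, RR48_04341 (blue) 92.9% in the female adult and RR48_12150 (red) 86.0% in the male pupa.

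Differences between groups of stages were taken as differences of mean log2(RPKM + 1), a scale that understates the change of low genes, and a row was counted as apart at 2 or more, that is 4-fold. The larvae were first set against the pupae and adults. RR48_06898 differed by 4.22, with 5 instars averaging 33.2 RPKM and 4 pupal and adult libraries averaging 0.152 RPKM, and it alone was apart. Over all rows, 6.27% were at least 4-fold higher in larvae. RR48_04339 differed by 1.33 and RR48_04341 by 1.30, and in both the ranges of the 2 groups overlapped. The difference of RR48_04339 was 0.27 without L2, 2.06 without L5 and 2.78 without the female pupa, and 2.24 with a pseudocount of 0.1 in place of 1. The difference of RR48_04341 ran from 0.33 without the male pupa to 2.24 without the female adult. RR48_13269 differed by 0.60, RR48_04338 by 0.54 and RR48_12150 by −0.31, the last close to the median of all rows, also −0.31. The median of the 6 was 0.95. Without L2, RR48_06898 differed by 3.78.

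The larvae differed from the egg in both directions. RR48_04341 was higher in larvae by 2.07, which was below 4-fold without L2 (1.98), without L3 (1.81) or without L4 (1.75). It was the only one of the 6 to be apart, beside 2.19% of all rows at least 4-fold higher in larvae. RR48_06898 differed by −1.75 and RR48_13269 by −1.38, their egg values lying at or near the top of their profiles. RR48_06898 was 4-fold lower in larvae without L2, at −2.18, or without L1, at −2.10. The differences were 0.75 for RR48_04339, which was −0.31 without L2, 0.43 for RR48_12150 and −0.37 for RR48_04338. The median of the 6 was 0.03, beside −0.02 over all rows.

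L2 was set against the other 4 instars. RR48_04339 was higher in L2 by 5.34. RR48_06898 was higher by 2.18, which was below 4-fold without L4 (1.75) or without L5 (1.66). These were 2 of the 6, and 5.53% of all rows were at least 4-fold higher in L2. RR48_04338 differed by 1.22, RR48_12150 by 0.93 and RR48_04341 by 0.48. The difference of RR48_04341 was −0.41 without L5, and its levels in L3 and L4 lay above that in L2. RR48_13269 differed by −0.20, and by 0.20 without L1. The median of the 6 was 1.08, beside 0.02 over all rows. L2 was the highest instar in 4 of the 6 genes, namely RR48_04338, RR48_04339, RR48_06898 and RR48_12150, and in 22.9% of the 15169 rows whose instars differed.

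L5 and L4 were compared after the levels had been seen, because the sum of the 6 was lowest in L5. RR48_04341 differed by −4.03 (2.85 RPKM in L5 and 62.1 RPKM in L4) and was the only one of the 6 apart, beside 6.56% of all rows at least 4-fold lower in L5. The differences were −1.12 for RR48_04338, −0.63 for RR48_12150, −0.41 for RR48_04339 (−2.11 with a pseudocount of 0.1), −0.27 for RR48_06898 and 0.28 for RR48_13269. The median of the 6 was −0.52 and that of all rows −0.55, so the middle of the 6 lay near that of the whole table. In 75th-percentile scaling the median of all rows was higher by 0.32.

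The female pupa was set against the male pupa. RR48_04339 was higher in the female by 5.84, and 12 of the 15285 rows had a larger difference. It was the only one of the 6 past 4-fold, beside 3.13% of all rows at least 4-fold higher in the female pupa. RR48_04341 differed by 1.97 and RR48_04338 by 1.74, short of that limit. Both passed it with a pseudocount of 0.1, at 3.19 and 4.61, and RR48_04341 also with scaling to the reads on genes, at 2.21. The 3 other genes were at −0.21 for RR48_06898, −0.05 for RR48_12150 and −0.02 for RR48_13269. With scaling to the reads on genes, RR48_12150 was at 0.16 and RR48_13269 at 0.11, so that the sign of these small differences depended on the scaling. The median of the 6 was 0.86, beside 0.04 over all rows.

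Between adults 0 of the 6 genes were 4-fold apart, beside 2.47% of all rows at least 4-fold higher and 8.11% at least 4-fold lower in the female. RR48_04341 was higher in the female by 1.79, whereas RR48_12150 differed by −1.43 and RR48_04338 by −1.35. RR48_13269 differed by −0.30, RR48_06898 by −0.04 and RR48_04339 by 0.05. RR48_04338 passed 4-fold with a pseudocount of 0.1, at −2.16. RR48_04341 was higher in the female beyond counting error at both stages, which held for none of the 5 others. RR48_04339, with the largest difference in pupae, had no more than 3 reads in either adult. The median of the 6 was −0.17, beside −0.13 over all rows.

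**Figure D3:**
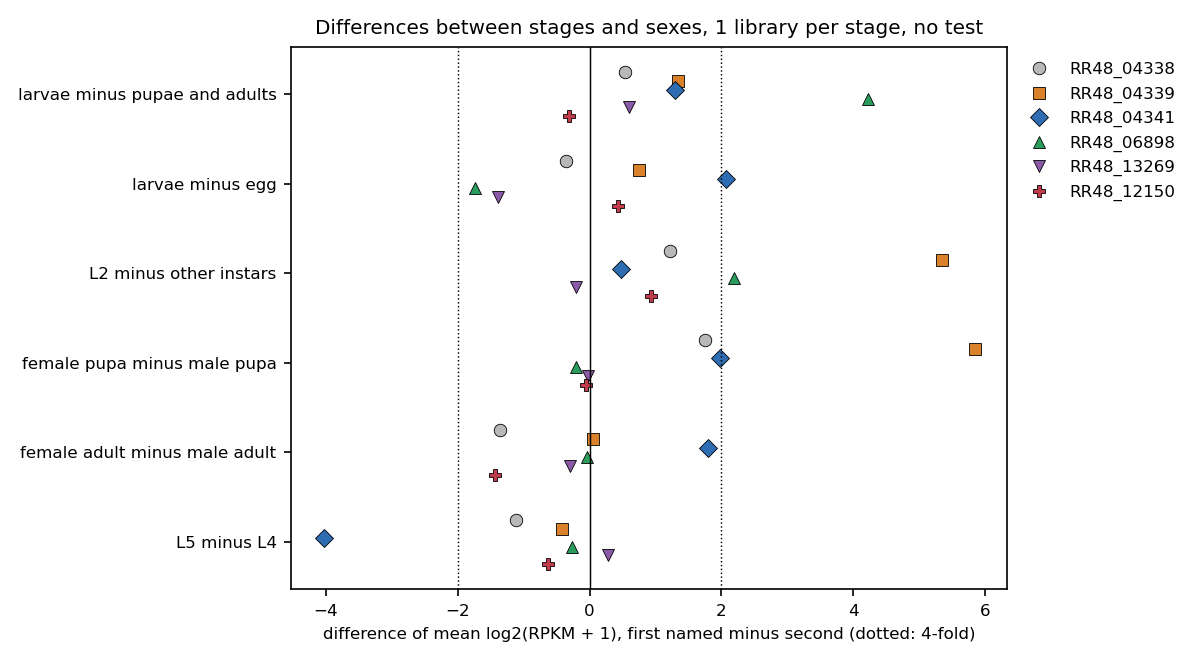
Difference of mean log2(RPKM + 1) (horizontal axis, first-named minus second-named libraries) for each of the 6 genes in 6 comparisons (rows); dotted lines mark 4-fold. The points past a line are RR48_06898 at 4.22 for larvae minus pupae and adults, RR48_04341 at 2.07 for larvae minus egg, RR48_04339 at 5.34 and RR48_06898 at 2.18 for L2, RR48_04339 at 5.84 for the pupae and RR48_04341 at −4.03 for L5 minus L4.

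RR48_04339 was apart both in L2 and in the female pupa. Of 846 rows at least 4-fold higher in L2 and 479 rows at least 4-fold higher in the female pupa, 39 were in both sets, 4.61% of the first and 8.14% of the second. RR48_04339 was the only one of the 6 among these 39.

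The recovered lengths, which the choice of the genes did not use, were 888 bp for RR48_13269, 990 bp for RR48_04338, 1128 bp for RR48_04339, 1134 bp for RR48_04341, 1197 bp for RR48_12150 and 1599 bp for RR48_06898. The median row was 981 bp long. RR48_04339 and RR48_04341 were thus of nearly equal length, whereas the 5 rows matched to FPPS ran from 888 bp to 1599 bp. The lengths rest on an assumed step of 3 bp, which was not tested, whereas their ratios do not depend on it.

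RR48_04338, RR48_04339 and RR48_04341 are rows 1, 2 and 4 of a run of 61 rows with rising tags in the table. Whether tags or runs follow the order of genes on a scaffold was not tested. Over the 10 libraries the Pearson correlation of log2(RPKM + 1) was 0.62 between RR48_04338 and RR48_04339, 0.46 between RR48_04338 and RR48_04341 and 0.13 between RR48_04339 and RR48_04341. The first of these was the second highest among the 15 pairs of the 6 genes. The row between them, RR48_04340, which was not matched to either family, is 1095 bp long and had 169 reads. It was highest in the female pupa at 3.22 RPKM, measured 1.17 RPKM in the egg and was below 1 RPKM in the 8 other libraries. It correlated with RR48_04339 at 0.49, with RR48_04338 at 0.42 and with RR48_04341 at −0.26. Such values describe 10 libraries, 1 per stage, in which all rows share the depth and the mixture of tissues, and are given without a test.

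**Figure D4:**
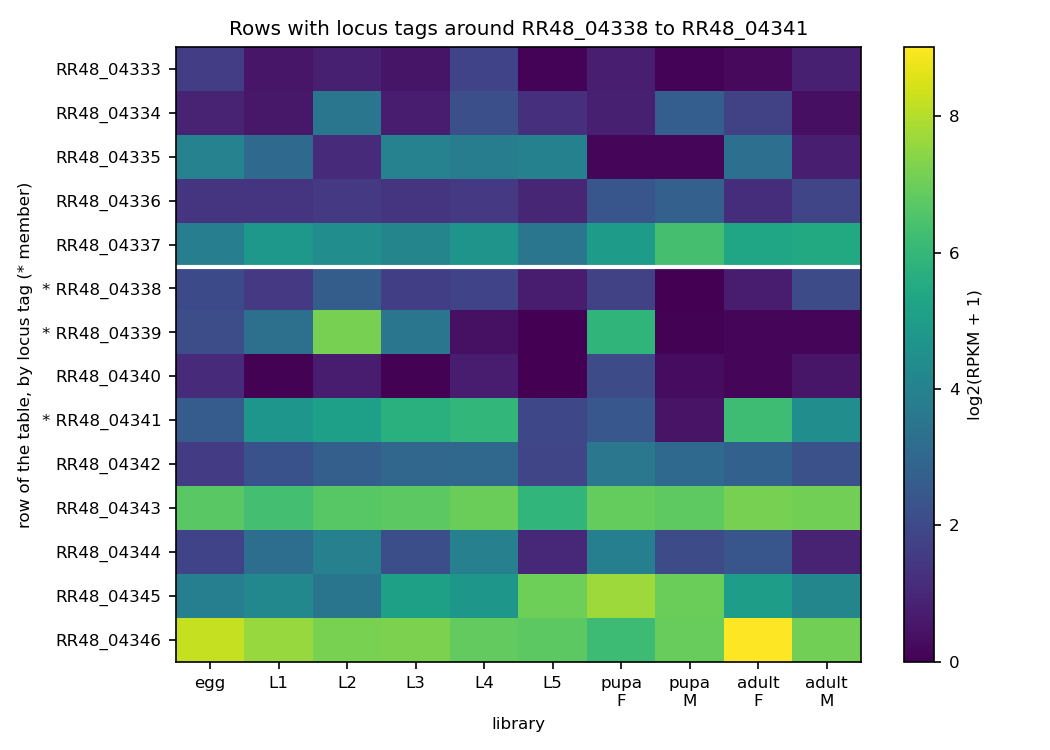
Level as log2(RPKM + 1) (colour scale) of the rows with tags RR48_04333 to RR48_04346 (vertical, asterisks mark the 3 genes described here) in the 10 libraries (horizontal). The white line marks the start of the run of tags, and the bright cells of RR48_04339 (142 RPKM in L2, 58.3 RPKM in the female pupa) and of RR48_04341 (72.8 RPKM in the female adult) do not continue into RR48_04340, whose highest value is 3.22 RPKM.

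Beyond this row, RR48_04344 measured 14.1 RPKM in L2, 14.1 RPKM in L4 and 13.8 RPKM in the female pupa and correlated with RR48_04339 at 0.65, and RR48_04346 was highest in the female adult at 518 RPKM and correlated with RR48_04341 at 0.41. These were the highest values among the non-member rows within 5 tags. The lowest were −0.29 with RR48_04339 (RR48_04335) and −0.63 with RR48_04341 (RR48_04345). RR48_04337, on the other side, belongs to another run, was highest in the male pupa at 80.5 RPKM and correlated at −0.41 with RR48_04338. RR48_04333, also outside the run of the members, was highest in L4 at 2.51 RPKM and correlated with RR48_04338 at 0.66. The other genes lay apart, with RR48_06898 as row 37 of a run of 72, RR48_13269 as row 151 of 328 and RR48_12150 as row 20 of 257. Next to RR48_13269, RR48_13270 (423 bp) followed a like course at a far higher level, with a maximum of 1021 RPKM in L1 and a correlation of 0.86. RR48_13271, RR48_13268 and RR48_13267 correlated with RR48_13269 at 0.59, 0.23 and −0.17. RR48_06900 correlated with RR48_06898 at 0.70 and was highest in L4 at 61.1 RPKM. RR48_06896, RR48_06897 and RR48_06899 correlated with RR48_06898 at 0.17, −0.33 and −0.27. RR48_12151 (273 bp), beside RR48_12150, reached 436 RPKM in L2 and correlated with it at 0.29. RR48_12152, RR48_12149 and RR48_12148 correlated with RR48_12150 at 0.45, 0.43 and −0.006.

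Among the 15 pairs of the 6 genes, the profiles of RR48_06898 and RR48_13269 were most alike (r = 0.75), both being high in the egg and L1 and low in adults. The least alike were RR48_13269 and RR48_12150 (r = −0.25). Among the 5 FPPS-matched rows alone the correlations ran from −0.21 to 0.75.

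Each gene was then set beside the rows of the table with the most similar profile, by Pearson correlation of log2(RPKM + 1) over the 10 libraries among 13978 rows. For RR48_04339 the nearest were RR48_05496 (r = 0.97) and RR48_03709 (r = 0.93). RR48_05496 had 5.66 RPKM in L2 and 3.23 RPKM in the female pupa, and RR48_03709 had 22.4 RPKM in L2 and 8.50 RPKM in the female pupa. Both were highest in the same 2 libraries as RR48_04339, at lower levels.

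RR48_06898 had the most company, with 8 rows at r of at least 0.95, led by RR48_10042 and RR48_09354 (r = 0.96 each), which were highest in L2 at 14.3 RPKM and 24.7 RPKM. RR48_13269 was nearest to RR48_00900 and RR48_13142 (r = 0.94 each), which were highest in the egg at 206 RPKM and 1634 RPKM. RR48_12150 was nearest to RR48_05325 (r = 0.93), highest in the male adult at 43.2 RPKM, and to RR48_13193 (r = 0.92), highest in the female pupa at 11.9 RPKM. The profile of RR48_04341 was nearest to RR48_03556 (r = 0.92) and RR48_14073 (r = 0.90), which were highest in L3 at 96.0 RPKM and in the female adult at 16.6 RPKM. The correlation does not compare the size of the changes. RR48_03556 did not fall below 36.4 RPKM and RR48_14073 fell to 0, whereas the lowest value of RR48_04341 was 0.404 RPKM. RR48_04338 was nearest to RR48_04711 (r = 0.91) and RR48_05044 (r = 0.86), both highest in L2, at 36.7 RPKM and 25.4 RPKM. Their lowest values were 3.73 RPKM and 1.15 RPKM, whereas RR48_04338 was at 0 in the male pupa. The choice of these 12 rows depended on the measure, since 6 were kept with a pseudocount of 0.1 and 1 with Spearman's rho.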

How the data were processed

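The authors sequenced RNA of 10 developmental libraries on an Illumina instrument and deposited 1 table of RPKM values for 15285 rows. The submitters' processing notes name TopHat 1.0.12 and 1.4.1, and the counting tool is not given in the sources used here. All columns were matched to a library by name (0 were left over). Whole reads were recovered from the RPKM steps (tolerance 1e-06 reads, lengths in steps of 3 bp), a procedure tested on simulated data. The step sets lengths and denominators, not reads. Denominators came out at 17943036 to 26492878, with the reads on genes 1.05 to 1.55 times as many. RPKM was compared as log2(RPKM + 1), without a filter, and no p-value was computed. The named genes are the 6 genes and for each the 2 rows with the highest correlation (mean RPKM of at least 1). Rows were also named from among those within 5 tags of the 3 neighbouring genes or 2 of the others. The genes, comparisons and this rule were chosen with earlier results of these data known. The comparison of L5 with L4 and scaling to the reads on genes were added after seeing the data. No juvenile hormone pathway gene was described, since 0 tags matched the RefSeq gene table. Python 3.11.15, numpy 2.4.6, scipy 1.17.1, pandas 2.3.3 and matplotlib 3.10.9 were used.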

Additional observations from a re-analysis of the deposited data

Results flagged for a closer look

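In 2 of the 6 genes 1 of the 5 instars stood far from the other 4, with a gap of more than 0.71 of the whole range. For RR48_04339 this was L2, with a gap of 0.925 of the range (142 RPKM, and 0 to 10.7 RPKM in the others). For RR48_13269 it was L1, with a gap of 0.832 (5.27 RPKM, and 0.704 to 1.47 RPKM in the others). Chance flags about 1 in 20 such groups of replicates, but the instars are stages, and 17.9% of the 15169 rows whose instars differed had such a gap.

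RR48_04338 differed between the sexes in opposite directions, by 1.74 on the log2 scale (female minus male) in pupae and by −1.35 in adults. With 1 animal per sex and stage, the difference between the stages was not tested.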

How the results depend on the processing

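Of 216 alternative values for the 6 genes (a pseudocount of 0.1, other scalings, leaving out a library), 0 of the called differences reversed and 5 moved by more than the SD between libraries of a group or, with 1 library a side, by more than 0.5 of the width of the counting interval of the ratio on the log2 scale. These were RR48_06898 at 6.57 for larvae minus pupae and adults and RR48_04341 at 3.19 for female minus male pupa, both with a pseudocount of 0.1, RR48_12150 at 0.16 for the pupae with scaling to the reads on genes, and RR48_06898 at 0.12 and RR48_12150 at −0.23 for L5 minus L4 with 75th-percentile scaling. The cause was not tested. The counting intervals of RR48_04338 and RR48_04339 for the pupae are so wide that larger moves, to 4.61 and 8.77 with a pseudocount of 0.1, are not among the 5. Leaving out a library cannot move a group mean by as much as the SD of that group, so no such value could be among the 5. For larvae minus pupae and adults, RR48_04339 ran from 0.27 to 2.78 in this way, beside 1.33 with all libraries. For larvae minus egg it was −0.31 without L2, beside 0.75 with all libraries. For L2 minus the other instars, RR48_04341 was −0.41 without L5, beside 0.48, and RR48_13269 was 0.20 without L1, beside −0.20. Such changes of sign were not counted as reversed, since only differences of at least 4-fold could be. With a pseudocount of 0.1 the number of genes apart was 2 for larvae minus pupae and adults, 3 for the pupae, 1 for the adults and 2 for L5 minus L4. At 2-fold it was 3 for larvae minus pupae and adults, 3 for larvae minus egg, 3 for L2 minus the other instars, 3 for the pupae, 3 for the adults and 2 for L5 minus L4. With scaling to the reads on genes it was 2 for the pupae. Leaving out 1 library at a time gave 1 to 2 genes for larvae minus pupae and adults, 0 to 2 for larvae minus egg and 1 to 2 for L2 minus the other instars. The share of all rows past the limit was not worked out at these altered settings. The counts therefore show only how the calls among the 6 depend on the setting. Scaling to the reads on genes moved the median of all rows by −0.15 for larvae minus pupae and adults and by 0.18 for the pupae, and 75th-percentile scaling by −0.10 for the pupae and by 0.32 for L5 minus L4. No paired analysis was possible because each stage has 1 library. Depth limits RR48_13269, with 5 to 94 reads per library, RR48_04338, with 0 to 138, and the adult values of RR48_04339 and RR48_06898, with at most 3 reads.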
